A study of Homo sapiens with 192 samples.

Results

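The 10 genes described here encode matrix proteases, their tissue inhibitors and the urokinase system: the matrix metalloproteinases MMP1, MMP7, MMP14, MMP15 and MMP24, the inhibitors TIMP1, TIMP2 and TIMP3, urokinase (PLAU) and its receptor (PLAUR). They were taken by name from the 58243 genes listed, with earlier results of these data known, and all 10 were among the 19387 genes that passed the filter on low counts in at least 1 group and were tested. The source was 4 human colorectal cancer (CRC) cell lines cultured under 2D or 3D growth conditions, from which polyadenylated RNA was sequenced in 24 libraries, 3 for each line under each condition. The lines are HT29 and LS513, of the microsatellite stable (MSS) phenotype, together with the microsatellite instable (MSI) lines HCT116 and LS174T. No drug was given to these cells; the 2D cultures are the reference for each line. HCT116 was kept in McCoy medium and the other lines in DMEM, so line and medium cannot be told apart in comparisons with HCT116. Each line is a single established tumour line without stroma, and the sources used here do not say that the 3 libraries of a group came from separate cultures, so p-values measure the spread between these libraries, which may be technical.

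Metalloproteinases are made as inactive proenzymes that need a zinc ion for activity and cut collagens, laminins, other proteases and cell surface proteins. MMP1 is the interstitial collagenase, MMP7 (matrilysin) is a small secreted enzyme made by epithelial and tumour cells rather than stroma, and MMP14, MMP15 and MMP24 are membrane-type enzymes held at the cell surface. The TIMP proteins block the active site of these enzymes, and TIMP2 also takes part in the activation of pro-MMP2 by MMP14. Urokinase converts plasminogen to plasmin, a serine protease that degrades fibrin and activates other proenzymes, and its receptor, anchored by a lipid tail, keeps that activity on the cell surface. In intestinal tumours MMP7 is a known target of Wnt signalling, and PLAU and PLAUR are classic targets of AP-1 factors.

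In GRCh38 with the GENCODE 29 annotation, MMP1 (ENSG00000196611, chr11:102789920-102798160) and MMP7 (ENSG00000137673, chr11:102520508-102530753) both lie on the minus strand of chromosome 11. The other genes lie apart: MMP14 at chr14:22836557-22849027, MMP15 at chr16:58025566-58046901, MMP24 at chr20:35226654-35277000, TIMP1 at chrX:47582313-47586789, TIMP2 at chr17:78852977-78925387, TIMP3 at chr22:32801701-32863043, PLAU at chr10:73909177-73917497 and PLAUR at chr19:43646095-43670547. Some share exonic bases with a neighbour. MMP24 shares 18.1% of its exonic bases with MMP24OS on the opposite strand, which had 558 to 2881 counts per library, and PLAU shares 31.05% with C10orf55, also on the opposite strand, which had at most 23 counts. TIMP2 shares 3.52% with CEP295NL on the same strand, which had 31 to 224 counts. The strand setting of the authors' counting is not given in the sources used here, so reads of the opposite-strand partners cannot be told apart from those of the gene. That setting has no bearing on CEP295NL, and its part in the TIMP2 values was not tested.

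RefSeq (GRCh38.p14) promoter windows were found for 8 of the 10 genes; MMP1 and TIMP2 have no entry. The 250 bases before each RefSeq start site were searched on both strands for 5 motifs: AP-1 (TGANTCA), TCF/LEF (CTTTGA), the hypoxia response core (ACGTG), the GC box (GGGCGG) and ETS (AGGAAG). Of these, 4 stretches are printed, MMP7 and PLAUR for their AP-1 match, TIMP1 as the gene with the highest level and TIMP3 as the one without counts in HT29. Matches are in capitals, all are written 5′ to 3′, and the stretches stop before the first annotated exon, except for PLAUR, where only the 30 bases around the AP-1 match are given.
MMP7, chr11:102530754-102530997, minus strand: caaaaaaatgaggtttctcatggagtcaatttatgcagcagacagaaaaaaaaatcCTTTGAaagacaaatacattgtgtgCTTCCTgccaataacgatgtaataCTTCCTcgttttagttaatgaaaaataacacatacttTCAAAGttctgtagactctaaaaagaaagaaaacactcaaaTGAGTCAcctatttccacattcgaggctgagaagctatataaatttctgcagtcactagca
PLAUR, chr19:43670337-43670366, minus strand: tcacaactccaTGAGTCAgggccgagccag
TIMP1, chrX:47582186-47582312, plus strand: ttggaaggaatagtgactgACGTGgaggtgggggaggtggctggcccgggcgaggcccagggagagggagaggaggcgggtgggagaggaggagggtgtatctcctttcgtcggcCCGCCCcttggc
TIMP3, chr22:32801455-32801700, plus strand: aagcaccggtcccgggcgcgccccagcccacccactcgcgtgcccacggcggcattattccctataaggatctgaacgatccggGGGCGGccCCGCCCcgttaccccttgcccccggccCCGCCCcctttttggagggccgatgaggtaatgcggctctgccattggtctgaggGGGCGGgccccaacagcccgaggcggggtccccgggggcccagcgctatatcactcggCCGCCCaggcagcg

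The MMP7 window held 1 AP-1 match (TGAGTCA), 2 TCF/LEF matches (CTTTGA, and TCAAAG on the other strand) and 2 ETS matches (CTTCCT, read on the other strand). PLAUR was the other of the 8 genes with an AP-1 match, at bases -186 to -180 counted from the RefSeq start site, against -67 to -61 in MMP7. The PLAUR start of GENCODE 29 lies further upstream, so the PLAUR stretch is inside the gene by that annotation. Of all 35116 windows of this length, 6.57% held an AP-1 match, 11.2% a TCF/LEF match, 18.5% a hypoxia response core, 42.6% a GC box and 28.7% an ETS match. GC boxes were found in 5 of the 8 genes, with 5 each in MMP15 and TIMP3, 3 in MMP24, 2 in TIMP1 and 1 in MMP14. By GENCODE 29, MMP15 (58025566) and TIMP1 (47582313) start inside their windows. All MMP15 GC boxes but that at -217 to -212 therefore lie inside the gene. So do the TIMP1 GC box at -45 to -40 and its ETS match at -87 to -82, which the printed TIMP1 stretch leaves out. The PLAUR ETS match at -15 to -10 also lies inside its gene. The hypoxia response core was present in TIMP1 and MMP14, ETS matches were present in MMP7, TIMP1 and PLAUR, and the PLAU window held none of the 5 motifs. By GENCODE 29 the whole PLAU window (chr10:73910360-73910609) lies inside the gene, which starts at 73909177. The bases before that start were not searched, so nothing can be said of motifs there. The GC content of these windows ran from 33.6% in MMP7 to 77.6% in MMP24. A match is a description of letters and not evidence of binding.

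Depth ran from 18723942 counts, in HT29 2D replicate 3, to 34277421 counts per library (median 30777613.5). Levels are given as CPM, the count scaled to a common total, after TMM scaling, and 3 counts, taken as the floor, were worth 0.0875 to 0.160 CPM. Floors cover counting error only, while the standard errors and SDs given below also take in the spread between libraries. Growth effects are log2 fold changes of 3D over 2D with their standard error (SE), from edgeR's quasi-likelihood test with Benjamini-Hochberg adjustment over all 19387 genes, and a gene was called at an adjusted p under 0.05. Summed epithelial markers (EPCAM, keratins, claudins, CDX1, CDX2 and others, 12 genes) stood at 3721 to 18704 CPM in every library. Of the 10 fibroblast and smooth muscle markers, whose sum was 0.708 to 28.9 CPM, COL1A2 and POSTN had 0 counts in all libraries, while COL1A1 reached 655 counts and ACTA2 250. Of the 8 leukocyte markers, whose sum was 2.19 to 93.8 CPM, CD3E had 0 counts and PTPRC at most 2, while CD68, a lysosomal glycoprotein, reached 2584 counts and was higher in 3D in all 4 lines. The part of such markers in the results below was not tested.

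Of the 10 genes, HCT116 had 8 higher and 0 lower in 3D, LS513 had 5 higher and 0 lower, HT29 had 3 higher and 3 lower, and LS174T had 1 higher and 1 lower. That makes 21 of 40 gene and line comparisons called, 17 higher and 4 lower. Over all tested genes, the share called higher in 3D was 16.8% in HCT116, 13.7% in LS513, 21.1% in HT29 and 13.1% in LS174T, and the share called lower was 12.3%, 9.9%, 19.6% and 9.15% in the same order. The counts of HCT116 and LS513 genes called higher stood above these shares, and the counts in LS174T stood near them. The median log2 fold change of the 10 genes was 0.81 in HCT116, 0.57 in LS513, 0.13 in HT29 and -0.04 in LS174T, with TIMP3 in HT29 and MMP7 in LS513 and LS174T at the fitted value of genes without usable counts, against 0.01, 0.00, 0.00 and 0.02 over all tested genes.

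**Figure D1:**
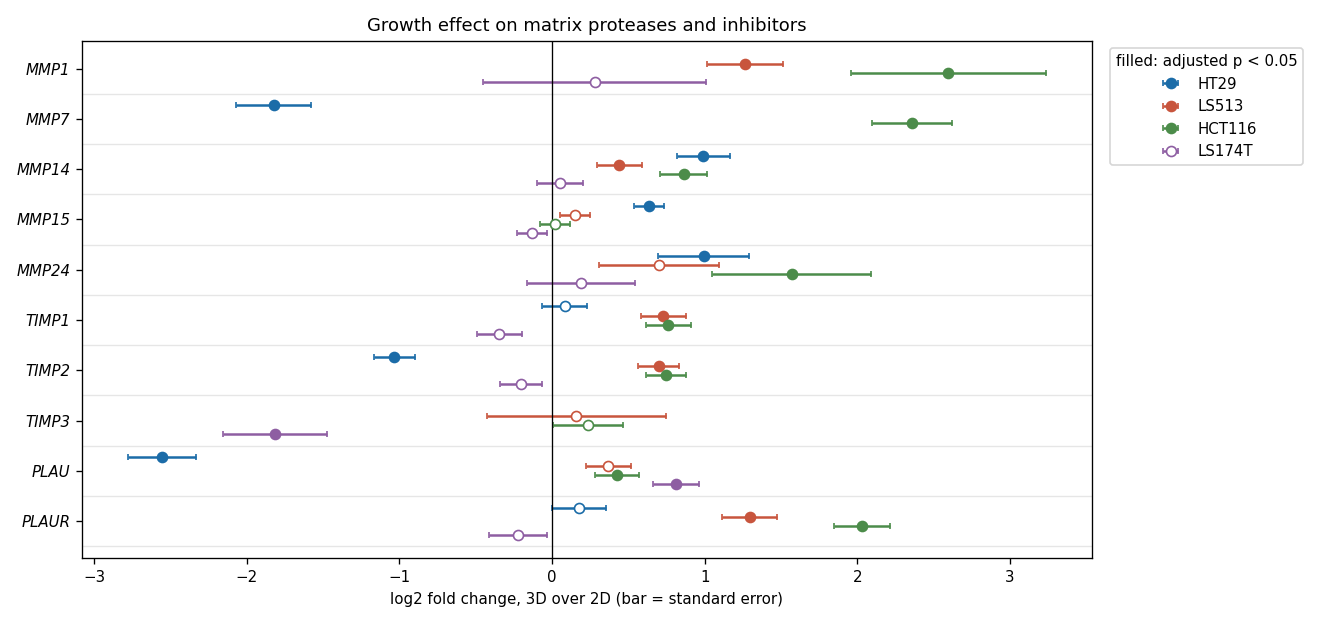
Log2 fold change of 3D over 2D (horizontal axis) for each of the 10 genes in the 4 lines, with the standard error as a bar; filled points have an adjusted p under 0.05. The 4 combinations with at most 5 counts in every library are not drawn (MMP1 in HT29, MMP7 in LS513 and LS174T, TIMP3 in HT29), all points called in HCT116 lie to the right of 0, and HT29 has points on both sides, from -2.55 for PLAU to 0.99 for MMP14 and MMP24.

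The same question asked in a single test, whether the growth effect of a gene differs between the 4 lines, was answered with a call for 8 of the 10 genes, where 17.1% of all tested genes were called. The smallest adjusted p-values of this edgeR test were those of PLAU (4.9e-08), MMP7 (5.6e-07), TIMP2 (6.7e-07) and PLAUR (3.1e-06). TIMP1 (7.7e-04), MMP15 (0.0018), TIMP3 (0.0097) and MMP14 (0.013) followed. MMP1 (0.253) and MMP24 (0.360) were not called.

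Among the secreted enzymes, MMP1, the interstitial collagenase, was at a level well above the floor in LS513 alone. Its 2D libraries there stood at 8.81, 7.73 and 8.07 CPM and its 3D libraries at 17.1, 24.5 and 17.4 CPM. All 3D libraries lay above all 2D libraries, with a log2 fold change of 1.26 (SE 0.25, edgeR adjusted p = 6.6e-04). In HCT116 the counts were 1, 4 and 1 in 2D and 5, 10 and 20 in 3D, so that the groups did not overlap although the gene was near the floor, and the rise was called at 2.60 (SE 0.64, edgeR adjusted p = 0.0039). Its size was uncertain, with log2 fold changes of 3.47 without 2D replicate 2 and 1.94 without 3D replicate 3, both still called. HT29 had 0, 0 and 1 counts in 2D and 5, 3 and 3 in 3D, which was not called (edgeR adjusted p = 0.054) but passed the threshold with DESeq2 (adjusted p = 0.037), the range over all alternatives being 0.020 to 0.235. LS174T had 3, 1 and 6 counts in 2D and 2, 7 and 2 in 3D, and these overlapped.

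MMP7 was called in opposite directions in HT29 and HCT116. In HT29 it stood at 23.5, 45.8 and 32.6 CPM in 2D and at 7.45, 7.64 and 13.8 CPM in 3D. Every 3D library lay below every 2D library, and the gene fell by 1.82 on the log2 scale (SE 0.25, edgeR adjusted p = 7.7e-06). In HCT116 it stood at 3.17, 2.87 and 3.50 CPM in 2D and at 19.5, 15.5 and 13.8 CPM in 3D. There every 3D library lay above every 2D library, and it rose by 2.36 (SE 0.26, edgeR adjusted p = 1.1e-06). The 3D level of HCT116 thus came to lie in or above the range of the 3D libraries of HT29, while in 2D HT29 was 10.7-fold above HCT116. In LS513 the gene had 0, 1 and 2 counts in 2D and 1, 0 and 1 in 3D, and in LS174T a single count was found over all 6 libraries, so no fold can be given for either line.

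Of the 3 membrane-type enzymes, none was called lower in any line. MMP14, the membrane-type collagenase, rose in HT29, LS513 and HCT116. In HT29 its libraries stood at 4.80, 2.99 and 4.00 CPM in 2D and 8.71, 6.39 and 8.30 CPM in 3D. The groups did not overlap and the log2 fold change was 0.99 (SE 0.18, edgeR adjusted p = 1.3e-04). In HCT116 they stood at 9.96, 11.6 and 12.8 CPM in 2D and 22.6, 22.3 and 17.4 CPM in 3D, again without overlap, with a log2 fold change of 0.86 (SE 0.16, edgeR adjusted p = 2.5e-04). LS513 had the highest level, with 54.3, 54.9 and 64.0 CPM in 2D and 84.6, 78.5 and 72.1 CPM in 3D. The rise there was smaller, at 0.44 (SE 0.15, edgeR adjusted p = 0.033), and it was not called without 2D replicate 1 (0.40), 2D replicate 2 (0.41), 3D replicate 1 (0.38) or 3D replicate 2 (0.44), with edgeR adjusted p-values of 0.118, 0.116, 0.144 and 0.0922. In LS174T, MMP14 stood at 34.7, 37.5 and 31.7 CPM in 2D and 34.2, 43.1 and 30.4 CPM in 3D, and the groups overlapped (0.05, SE 0.15).

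MMP15, the enzyme with the highest level per exon length of the 5 metalloproteinases, rose in HT29 and was called in no other line. Its HT29 libraries stood at 84.6, 67.2 and 82.4 CPM in 2D and 118, 114 and 132 CPM in 3D, which do not overlap (log2 fold change 0.64, SE 0.10, edgeR adjusted p = 3.1e-05). In the other lines the 2D and 3D libraries overlapped, with log2 fold changes of 0.15 (SE 0.10) in LS513, 0.02 (SE 0.10) in HCT116 and -0.13 (SE 0.10) in LS174T. These standard errors are among the smallest of the 10 genes. MMP24, a membrane-type enzyme best known from the nervous system, stood at 4.35, 2.68 and 4.22 CPM in 2D and 6.93, 8.64 and 6.74 CPM in 3D of HT29 (0.99, SE 0.30, edgeR adjusted p = 0.010). That rise was not called without HT29 2D replicate 2 (0.83, adjusted p = 0.053). In HCT116 the gene had 5, 5 and 7 counts in 2D and 17, 16 and 14 in 3D (1.57, SE 0.52, edgeR adjusted p = 0.026). This call was lost without 2D replicate 1 or 2 or 3D replicate 1 or 2, with log2 fold changes of 1.48, 1.45, 1.49 and 1.55 and adjusted p-values of 0.0855, 0.0906, 0.0746 and 0.0623. The opposite-strand gene MMP24OS had more counts than MMP24 in these libraries, and its part in the MMP24 values was not tested.

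**Figure D2:**
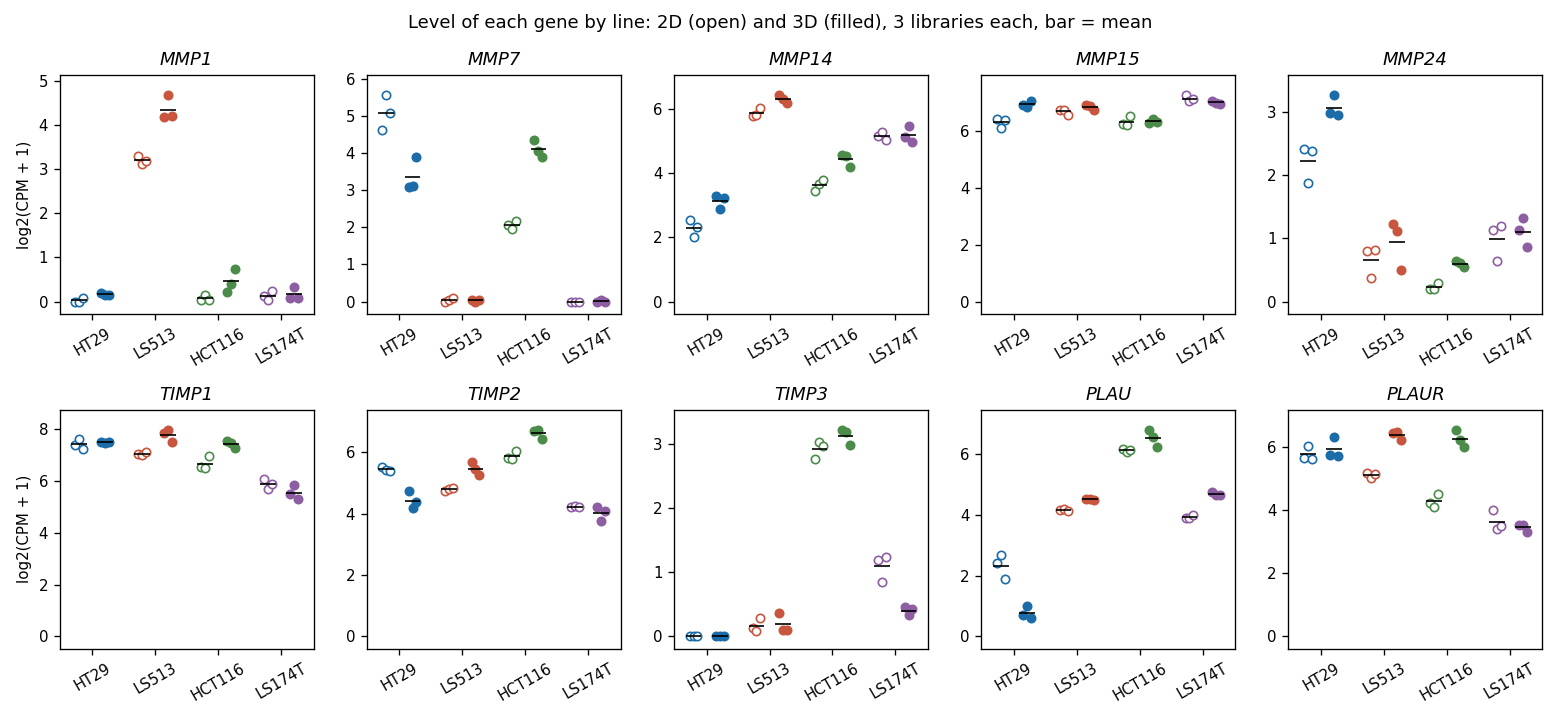
Level of each of the 10 genes as log2(CPM + 1) in every library, by line, with 2D as open and 3D as filled points and the mean of 3 libraries as a bar. MMP7 goes down in HT29 and up in HCT116, MMP15 stays between 67.2 and 151 CPM throughout, and TIMP3 is at 0 in all HT29 libraries.

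Of the inhibitors, TIMP1, which also binds pro-MMP9, rose in LS513 and HCT116. LS513 libraries stood at 132, 127 and 141 CPM in 2D and 233, 250 and 180 CPM in 3D, without overlap (0.73, SE 0.15, edgeR adjusted p = 8.1e-04). HCT116 libraries stood at 93.8, 89.2 and 124 CPM in 2D and 189, 177 and 154 CPM in 3D, also without overlap (0.76, SE 0.15, edgeR adjusted p = 4.8e-04). In HT29 the values were 166, 198 and 151 CPM in 2D and 182, 180 and 184 CPM in 3D, so the 3D libraries lay inside the range of 2D (0.08, SE 0.15). In LS174T they were 67.0, 51.3 and 59.2 CPM in 2D and 43.9, 57.1 and 38.9 CPM in 3D, and 1 of the 3D libraries lay inside the range of 2D. The log2 fold change of -0.34 (SE 0.15) was not called (edgeR adjusted p = 0.098), and it was called without 3D replicate 2 (-0.51, adjusted p = 0.031).

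TIMP2 moved in opposite directions in HT29 and in the LS513 and HCT116 lines. HT29 libraries stood at 44.7, 42.0 and 41.2 CPM in 2D and 25.5, 17.2 and 19.8 CPM in 3D. The 3D libraries all lay below those of 2D, and the gene fell by 1.03 on the log2 scale (SE 0.13, edgeR adjusted p = 3.5e-06). LS513 stood at 25.9, 27.0 and 27.7 CPM in 2D and 50.1, 43.1 and 37.5 CPM in 3D (0.70, SE 0.13, edgeR adjusted p = 5.0e-04). HCT116 stood at 55.8, 54.5 and 64.6 CPM in 2D and 103, 105 and 85.9 CPM in 3D (0.75, SE 0.13, edgeR adjusted p = 1.9e-04). Both rises were without overlap. In 2D the LS513 libraries lay below those of HT29, and in 3D they lay above them. LS174T had the lowest level, at 17.8, 18.02 and 17.6 CPM in 2D and 17.7, 12.7 and 16.0 CPM in 3D, with overlap (-0.20, SE 0.14).

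TIMP3, the inhibitor that binds to the matrix itself, ranged from 0 counts in 1 line to several CPM in another. HT29 had 0 counts in all 6 libraries, which allows at most the floor of 3 counts in each. LS513 had 3, 2 and 7 counts in 2D and 8, 2 and 2 in 3D, also close to the floor. HCT116 had the highest level, with 5.77, 7.16 and 6.83 CPM in 2D and 8.27, 8.10 and 6.88 CPM in 3D, and the groups overlapped (0.24, SE 0.23, edgeR adjusted p = 0.482). LS174T had 43, 28 and 46 counts in 2D and 12, 7 and 11 in 3D. The groups did not overlap and TIMP3 fell by 1.81 on the log2 scale (SE 0.34, edgeR adjusted p = 0.0011), the single fall called in that line.

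Urokinase and its receptor did not move together in every line. PLAU, the enzyme, stood at 4.32, 5.33 and 2.74 CPM in 2D and 0.633, 1.00 and 0.508 CPM in 3D of HT29. All 3D libraries lay below all 2D libraries, and PLAU fell by 2.55 on the log2 scale (SE 0.22, edgeR adjusted p = 1.5e-08), the largest fall among the 10 genes. In LS174T it stood at 14.0, 13.8 and 14.8 CPM in 2D and 26.1, 24.3 and 24.3 CPM in 3D, a rise of 0.81 (SE 0.15, edgeR adjusted p = 6.1e-04) without overlap. HCT116 had the highest level, with 70.6, 66.8 and 68.8 CPM in 2D and 109, 93.4 and 74.4 CPM in 3D (0.43, SE 0.14, edgeR adjusted p = 0.029). Here the call was lost without any single HCT116 2D library or without 3D replicate 1 or 2, and the log2 fold change came down to 0.27 (adjusted p = 0.223) without 3D replicate 1. LS513 stood at 16.9, 17.3 and 16.5 CPM in 2D and 22.1, 21.9 and 21.5 CPM in 3D, which did not overlap, but the rise of 0.37 (SE 0.15) missed the threshold (edgeR adjusted p = 0.078). It passed the threshold when the 6 LS513 libraries were fitted alone (adjusted p = 0.011) and with DESeq2 (adjusted p = 0.027).

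PLAUR, the receptor, rose most in HCT116, from 17.6, 16.1 and 22.0 CPM in 2D to 91.6, 73.3 and 62.7 CPM in 3D. The groups were far apart, with a log2 fold change of 2.03 (SE 0.18, edgeR adjusted p = 3.6e-08). LS513 went from 34.9, 31.6 and 34.0 CPM to 86.3, 87.1 and 73.4 CPM, again without overlap (1.29, SE 0.18, edgeR adjusted p = 1.4e-05). In HT29 the libraries stood at 49.3, 64.9 and 48.2 CPM in 2D and 52.6, 79.2 and 51.7 CPM in 3D, with overlap (0.18, SE 0.18). In LS174T they stood at 15.1, 9.64 and 10.3 CPM in 2D and 10.5, 10.6 and 8.90 CPM in 3D, also with overlap (-0.22, SE 0.19). HCT116 and LS513 were thus the lines with a called rise of the receptor, and HT29 and LS174T, with the called fall and the largest called rise of the enzyme, had no call for the receptor.

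Levels also differed between lines grown in 2D. Of 60 comparisons, 10 genes in 6 pairs of lines, 53 were called by edgeR, against a background of 60.6% of all tested genes between HT29 and LS513, 68.8% between HT29 and HCT116, 64.6% between HT29 and LS174T, 68.3% between LS513 and HCT116, 57.6% between LS513 and LS174T and 68.3% between HCT116 and LS174T. In the order from the highest to the lowest mean, MMP14 ran LS513 (57.8 CPM ± 5.4, SD, n = 3), LS174T (34.6 ± 2.9), HCT116 (11.4 ± 1.4) and HT29 (3.93 ± 0.91), and every neighbour differed. PLAU ran HCT116 (68.7 ± 1.9), LS513 (16.9 ± 0.43), LS174T (14.2 ± 0.50) and HT29 (4.13 ± 1.3), with LS513 and LS174T not called apart (edgeR adjusted p = 0.162). PLAUR ran HT29 (54.1 ± 9.3), LS513 (33.5 ± 1.7), HCT116 (18.6 ± 3.0) and LS174T (11.7 ± 3.0), and TIMP1 ran HT29 (172 ± 24), LS513 (133 ± 6.9), HCT116 (102 ± 19) and LS174T (59.2 ± 7.9), all neighbours being called apart. HT29 was thus last for the enzyme PLAU and first for its receptor.

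The remaining genes had other orders in 2D. TIMP2 ran HCT116 (58.3 ± 5.5), HT29 (42.7 ± 1.8), LS513 (26.9 ± 0.95) and LS174T (17.8 ± 0.20), all apart. MMP15 ran LS174T (139 ± 10.45), LS513 (102 ± 7.4), HCT116 (79.1 ± 9.3) and HT29 (78.1 ± 9.5), and the last pair was not called apart (edgeR adjusted p = 0.894). MMP24 ran HT29 (3.75 ± 0.93), LS174T (1.02 ± 0.40), LS513 (0.601 ± 0.26) and HCT116 (0.173 ± 0.045), with LS174T and LS513 not called apart (edgeR adjusted p = 0.092). TIMP3 ran HCT116 (6.58 ± 0.73), LS174T (1.15 ± 0.31), LS513 (0.126 ± 0.085) and HT29, where HCT116 was at least 53.3-fold higher than HT29, whose mean was set at the floor of 3 counts per library. MMP7 ran HT29 (34.0 ± 11.2) and HCT116 (3.18 ± 0.31), with HT29 at least 362-fold above LS513 and at least 387-fold above LS174T by the same floor. MMP1 in LS513 (8.21 ± 0.55) was at least 66.5-fold above HT29, and HT29, HCT116 and LS174T were not called apart from each other.

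On the scale of CPM per kilobase of exon, which allows levels to be set side by side between genes, TIMP1 was first in every line in 2D, with HT29 at 111 ± 15.6, LS513 at 86.5 ± 4.4, HCT116 at 66.5 ± 12.4 and LS174T at 38.4 ± 5.1 (SD, n = 3). MMP15 was second in HT29 (17.7 ± 2.1), LS513 (23.1 ± 1.7) and LS174T (31.5 ± 2.4), and PLAU was second in HCT116 (23.3 ± 0.64). Of the summed per-length level of the 3 inhibitors, TIMP1 took 93.6%, 94.7%, 84.8% and 91.8% in 2D and 97.0%, 94.8%, 85.5% and 91.2% in 3D of HT29, LS513, HCT116 and LS174T. Of the summed per-length level of the 5 metalloproteinases, MMP15 took 52.3% in 2D and 78.3% in 3D of HT29, where MMP7 fell. In HCT116, where MMP7 rose, the share of MMP15 went the other way, from 81.7% to 60.3%. In LS513 it was 57.2% in 2D and 48.0% in 3D, and in LS174T 79.6% and 77.5%. MMP14 took 32.1% of the metalloproteinase sum in LS513 in 2D, against 2.62% in HT29. These shares are descriptions, with no test.

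**Figure D3:**
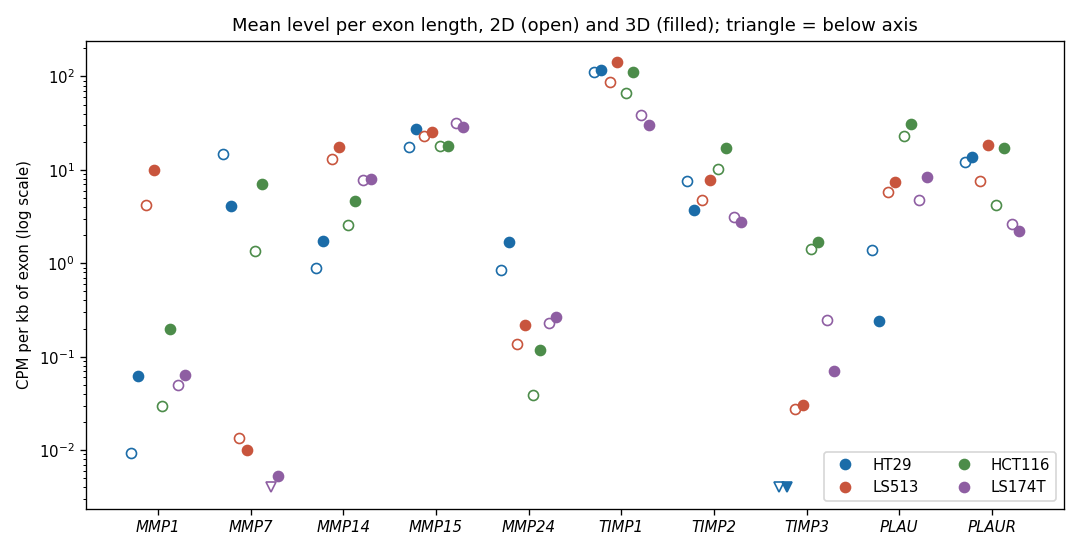
Mean level in CPM per kilobase of exon (log scale) of each gene in the 4 lines, 2D open and 3D filled, each the mean of 3 libraries; triangles mark means below the axis. TIMP1 lies highest, between 30.3 and 143, and MMP1, MMP7 and TIMP3 spread over several orders of magnitude between lines.

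Other genes of the same systems were followed from lists given with their counts. Over all tested genes, 21.1%, 13.7%, 16.8% and 13.1% were called higher in 3D in HT29, LS513, HCT116 and LS174T. In the same order, 19.6%, 9.9%, 12.3% and 9.15% were called lower. Of 18 other metalloproteinases, 7 were tested, and 4, 1, 3 and 1 of them were higher and 0 lower in 3D of HT29, LS513, HCT116 and LS174T. MMP28 (epilysin) rose in HT29 (2.46, SE 0.27), LS513 (1.71, SE 0.25) and HCT116 (1.20, SE 0.37). MMP11 (stromelysin-3) rose in HT29 (2.07, SE 0.40), HCT116 (0.88, SE 0.21) and LS174T (0.63, SE 0.21). In HT29 it had 3 to 11 counts in 2D and 19 to 40 in 3D. MMP17, a membrane-type enzyme, rose in HCT116 (0.98, SE 0.20). The median log2 fold changes of these 7 genes were 1.40, 0.66, 0.88 and 0.43, against 0.00 to 0.02 over all tested genes. Of 12 other regulators, 10 were tested, and 0, 3, 2 and 0 were higher and 1, 0, 1 and 1 lower. FURIN, the convertase that cuts the propeptide of membrane-type metalloproteinases, rose in HCT116 (0.41, SE 0.09), and its relatives PCSK5 (0.96, SE 0.22) and PCSK6 (0.36, SE 0.09) rose in LS513. CLDN1 fell by 1.18 in HT29 and by 0.77 in LS174T. SPARC, a matrix glycoprotein, rose in HCT116 (2.69, SE 0.50), from 5 to 6 counts in 2D to 16 to 52 in 3D.

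Of 17 genes of plasminogen activation besides PLAU and PLAUR, 15 were tested, and 9 were higher and 0 lower in HCT116, 6 and 0 in LS513, 4 and 4 in HT29 and 2 and 3 in LS174T. Over all tested genes the shares higher and lower were 16.8% and 12.3% in HCT116 and 13.7% and 9.9% in LS513. They were 21.1% and 19.6% in HT29 and 13.1% and 9.15% in LS174T. The counts in HT29 stood near its shares. PLAT, the tissue-type activator, fell in HT29 with urokinase, from 1.71 ± 0.72 CPM (SD, n = 3; 19 to 72 counts) to the floor (1 to 3 counts; edgeR adjusted p = 3.5e-07). It rose in HCT116, from 10.7 to 19.6 CPM (0.87, SE 0.24). SERPINB2, an inhibitor of urokinase, rose in HCT116 from 0 to 1 counts to 15 to 17 counts. SERPINE2 fell by 0.58 in HT29 and by 0.89 in LS174T, and SERPINB5 (maspin) fell by 0.66 in HT29 and by 0.61 in LS174T and rose in LS513 (0.43, SE 0.09). LRP1, an endocytic receptor that clears urokinase complexes from the cell surface, rose in all 4 lines, most in LS513 (1.58) and LS174T (1.36), then in HCT116 (0.94) and HT29 (0.67). ANXA2, which binds plasminogen activator at the surface, rose in LS513 (0.81, SE 0.13) and HCT116 (0.69, SE 0.13), the lines in which PLAUR and TIMP1 rose.

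Counts of other protease families stand beside the shares of all tested genes, in the order HT29, LS513, HCT116 and LS174T. These shares were 21.1%, 13.7%, 16.8% and 13.1% higher and 19.6%, 9.9%, 12.3% and 9.15% lower in 3D. Of 24 serine proteases and serine protease inhibitors, 21 were tested. Of these, 10, 9, 12 and 7 were higher and 2, 1, 0 and 1 lower in HT29, LS513, HCT116 and LS174T. TMPRSS4 rose in all 4 lines (1.29, 1.17, 2.79 and 1.26), as did PRSS8 (prostasin; 0.91, 0.96, 1.28 and 0.65). KLK6 rose in LS513 (1.03) and HCT116 (1.06) and fell by 0.61 in HT29 and by 0.41 in LS174T. TMPRSS2 rose in HT29 (1.46) and LS174T (0.63), and SPINK4, a goblet cell inhibitor, rose in HT29 (4.32, from 1 to 11 counts in 2D to 88 to 127 in 3D) and LS174T (2.80). All 18 cathepsins and cystatins were tested, with 8, 7, 12 and 6 higher and 2, 0, 1 and 1 lower. The cystatin CSTB (0.58, 1.43, 0.34 and 0.61) and the legumain LGMN (1.00, 0.56, 0.64 and 0.43) rose in all 4 lines, and CTSB rose in HCT116 (0.63). CTSS rose in HT29 (2.05), LS513 (1.32) and, from 2 to 5 counts in 2D to 8 to 16 in 3D, LS174T (2.03). CTSE fell by 0.73 in HT29 and by 1.52 in LS174T and rose in LS513 (1.21), and CST3 rose in HT29 (0.83), HCT116 (0.78) and LS174T (0.56). A list of 20 genes held ADAM and ADAMTS proteases, BMP1 and the meprins, and 13 of them were tested. Of these, 2, 2, 3 and 3 were higher and 6, 1, 0 and 1 lower. The counts called higher stood near the shares of all tested genes. ADAM19 fell by 2.04 in HT29 and by 1.23 in LS174T and rose in HCT116 (0.89), ADAM9 fell by 0.99 in HT29, BMP1 fell by 0.30 in HT29 and rose in HCT116 (0.48), and ADAMTS13 rose in all 4 lines (1.66, 1.27, 1.48 and 1.22). ADAMTS15 fell by 1.07 in LS513 and, from 7 counts at most, in HT29, and MEP1B (meprin) rose in LS513 (1.84) and, from 4 counts at most to 28 or 29, in LS174T.

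The AP-1 and ETS factors, all 15 of which were tested, gave 8, 5, 7 and 9 higher and 3, 1, 2 and 3 lower in HT29, LS513, HCT116 and LS174T. The shares over all tested genes were 21.1%, 13.7%, 16.8% and 13.1% higher and 19.6%, 9.9%, 12.3% and 9.15% lower. JUN (1.34, 0.79, 1.33 and 2.09), JUND (1.32, 1.27, 1.36 and 1.73), FOSL2 (0.71, 0.84, 0.88 and 0.57) and ATF3 (2.38, 2.62, 1.00 and 2.16), all members of or partners in AP-1, rose in all 4 lines, and so did ELF3, an epithelial ETS factor (0.70, 0.82, 1.69 and 1.13). ETV4 rose in LS174T (1.13) and HT29 (0.26) and fell by 0.28 in HCT116, and ETV5 fell by 0.74, 0.40 and 0.46 in HT29, HCT116 and LS174T. Epithelial markers moved with growth as well, with 8, 9, 6 and 6 of 12 higher and 1, 0, 0 and 0 lower, among them KRT19 (0.66, 1.14, 1.32 and 1.52), KRT20 (0.76, 1.54, 1.95 and 3.93), CLDN3 (1.02, 0.82, 2.14 and 0.85), CLDN4 (0.71, 1.15, 2.04 and 1.22) and CLDN7 (0.75, 0.74, 1.04 and 0.61). CDX2 rose in HT29 (2.25), LS513 (0.60) and LS174T (0.79) and CDX1 in HT29 (2.82). Of the other markers, ACTA2 rose in LS174T (0.85), CD14 in HT29 (1.04), MPO in LS513 (2.12) and, from at most 2 counts to 9 to 12, in HCT116, and CD68 in all 4 lines (1.17, 2.01, 1.92 and 0.92).

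**Figure D4:**
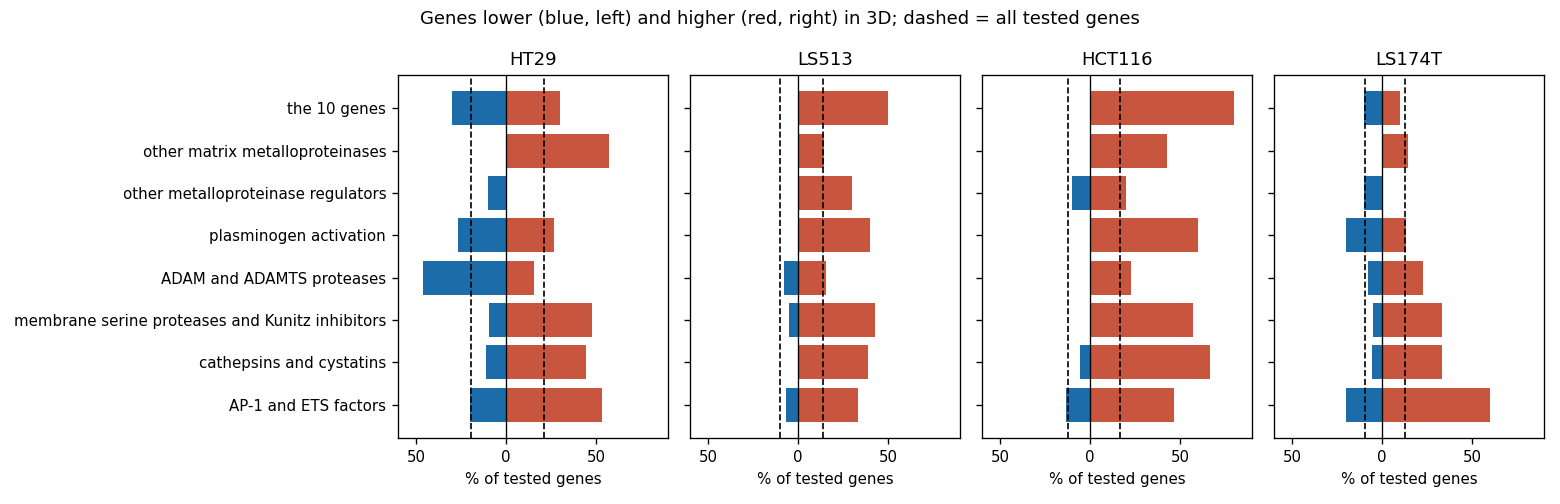
Share of the tested genes of each list called higher (red, to the right) or lower (blue, to the left) in 3D, in percent, for the 4 lines; the dashed lines give the shares over all 19387 tested genes, which are 21.1 and 19.6 in HT29. The bar of the 10 genes reaches 80% in HCT116, where 8 of 10 were higher, and lies near the dashed lines in LS174T. The row of membrane serine proteases and Kunitz inhibitors also holds other serine proteases and inhibitors. The row of ADAM and ADAMTS proteases also holds BMP1 and the meprins.

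Over the 24 libraries, with log2(CPM + 1) centred within each line, the genes most like each member called in at least 2 lines were found among 14605 genes with a mean of at least 1 CPM. The libraries share line, depth and growth condition, so these correlations are descriptions. NTSR1 was among the 2 genes most like MMP7 (r = 0.92) and SPOCD1 among the 2 most like PLAUR (0.95). MMP14 was most like WDR45 (0.96) and DNASE2 (0.94), and MMP24 most like SLC39A7 (0.89) and GSTK1 (0.88). TIMP1 was most like ANXA2 and SFN (both 0.92), and TIMP2 most like STK10 (0.94) and PPL (0.93). PLAU was most like SLCO4A1 (0.90) and AXL (0.88), and MMP1 most like PSPHP1 (0.93) and AC104692.2 (0.92). No member of the 10 genes was compared with another in this search.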

How the data were processed

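RNA of 24 libraries was converted to strand-specific polyA libraries and sequenced as single 75-base reads. Per the labels and methods, the authors trimmed reads (Trim Galore 0.4.1), aligned them with STAR, removed reads matching more than once and deposited raw counts per Ensembl 91 gene from HTSeq 0.5.3, without normalization. The processing notes name hg19, yet 57980 of 58243 identifiers are in GENCODE 29 (GRCh38). Reads of near-identical copies are therefore lost, and the strand setting is not given in the sources used here.

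The 191 count sets were summed over technical replicates (8 per library, 7 for HT29 3D replicate 4). Library totals were 18723942 to 34277421. edgeR 4.0.16 in R 4.3.3 (filterByExpr, TMM, robust quasi-likelihood fit of all 24 libraries, 8 groups) gave two-sided tests, adjusted over 19387 genes. An exact permutation test of 3 against 3 could not give a p under 0.1. The scripts were tested on simulated data. Alternatives were DESeq2 1.42.0 and its size factors, all genes with at least 1 count, the 6 libraries of a line alone, a replicate block, no technical replicate d, other cutoffs and leaving out each library.

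The 10 genes and all lists were chosen with earlier results of these data known. Besides the 10 genes, the text names, of each list and line, the 2 called genes with the smallest p, list genes called in 1 direction in all 4 lines, PLAT, and the 2 genes most like each member called in at least 2 lines. Some genes that this rule names are not reported here. The promoter search used the 250 bases before the start site.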

Additional observations from a re-analysis of the deposited data

Results flagged for a closer look

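The growth effect differed between the 4 lines by the interaction test of edgeR (Benjamini-Hochberg adjusted p under 0.05) for 8 of the 10 genes, against 17.1% of all tested genes. The gap between the highest and the lowest log2 fold change was 4.18 for MMP7 (HCT116 against HT29), 3.37 for PLAU (LS174T against HT29), 2.26 for PLAUR (HCT116 against LS174T) and 2.05 for TIMP3 (HCT116 against LS174T). It was 1.78 for TIMP2 (HCT116 against HT29), 1.105 for TIMP1 (HCT116 against LS174T), 0.94 for MMP14 (HT29 against LS174T) and 0.77 for MMP15 (HT29 against LS174T). MMP7, TIMP2 and PLAU were called higher in at least 1 line and lower in HT29. The 4 lines also differ in medium for HCT116, and this cannot be told apart from the line.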

How the results depend on the processing

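The fold change cutoffs that the study used to count affected genes (log2 under -0.5 or over 1.5) were applied here on top of the adjusted p threshold. For its gene set enrichment the paper used an upper cutoff of 1, which was not applied here. MMP1 (1.26) and PLAUR (1.29), both called in LS513, lie between these upper cutoffs. With both, 4 genes in HCT116, 3 in HT29, 1 in LS174T and 0 in LS513 passed, against 8, 6, 2 and 5 without a fold cutoff. The paper pairs its cutoffs with a p-value that it does not call adjusted, so the rule used here is not the same. MMP1 in HT29 (2.88, edgeR adjusted p = 0.054) was over the fold cutoff but was not counted. The shares of all tested genes passing both limits are not given here, so the drop in these counts has no background beside it. Of 1106 recomputed values, 1059 kept their direction and side of the threshold, 18 lost and 15 gained the call, and 14 changed sign, none of the latter for a called gene. Of the 1059, 852 came from leaving out 1 library, mostly a library of another line than the one compared. Such omissions hardly touch the fold, so this total does not measure how stable a call is. MMP15 in HCT116 was -0.0082 with all genes of at least 1 count, and TIMP3 in LS513 was -0.1358 without technical replicate d. Leaving out 1 library each gave ranges of -0.0062 to 0.3596 for PLAUR in HT29, -0.8114 to 0.8199 for TIMP3 in LS513, -0.0385 to 0.0933 for MMP15 in HCT116, -0.6292 to 0.985 for MMP1, -0.0919 to 0.157 for MMP14, -0.1007 to 0.4059 for MMP24 and -0.3465 to 0.0002 for PLAUR, the last 4 in LS174T. MMP24 in HCT116 also lost its call without technical replicate d (1.38, adjusted p = 0.0502), and TIMP1 in LS174T gained one with all genes of at least 1 count (-0.34, adjusted p = 0.0328). The cause was not tested.

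The deviations of same-numbered 2D and 3D libraries from their group means correlated at -0.126 to 0.077, and not every library correlated best with its own number. No pairing was thus seen, but with 3 libraries per group this cannot show that there was none. The replicate block gave 6 called genes in HCT116, 5 each in LS513 and HT29, 2 in LS174T and 6 genes with a difference between lines, MMP14 and MMP15 no longer being called. The shares of all tested genes called under this block are not given here, so these counts have no background beside them. Calls lost under it were MMP24 in HT29 (0.85, adjusted p = 0.135) and HCT116 (1.57, adjusted p = 0.0702) and PLAU in HCT116 (0.41, adjusted p = 0.0516). The block was fitted on all 24 libraries. HT29 2D replicate 2 and HT29 3D replicate 4 have no partner of the same number, so they do not bear on the HT29 growth effect under it. MMP1, MMP7 and TIMP3 were at or near the floor in some lines, and depth limits what can be said of them there.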
